A study of Mus musculus with 9 samples.

Results

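The 10 genes followed here act in glucose entry and glycolysis. They comprise the insulin-independent glucose transporter genes *Slc2a1* and *Slc2a3*, the hexokinase genes *Hk1*, *Hk2* and *Hk3*, the phosphofructokinase genes *Pfkl* and *Pfkp*, the regulator gene *Pfkfb3*, the pyruvate kinase gene *Pkm* and the lactate dehydrogenase gene *Ldha*. The members were taken by symbol, 10 of the 32285 genes in the count tables, and all 10 had UMIs (unique molecular identifiers, each standing for 1 captured RNA molecule) in all 9 libraries. Single-nucleus RNA-seq was run on epididymal adipose tissue (epiAT), the visceral fat pad along the epididymis, of male C57BL/6J mice, with 1 library per diet group and 5 mice pooled in each. The lean groups were C, CC and CCC, chow-fed mice aged 18, 26 and 39 weeks. The obese groups were H, aged 18 weeks with 12 weeks of high-fat diet (HFD), and HH, aged 31 weeks with 25 weeks of HFD. The weight-loss (WL) groups had returned to chow for 8 weeks, HC at 26 weeks of age after 12 weeks of HFD and HHC at 39 weeks of age after 25 weeks of HFD. Both remaining groups were 30 weeks old and ended on 4 weeks of HFD, which was the first HFD for CCH and a second one for HCH, after 12 weeks of HFD and 8 weeks of chow. By the study's methods, the chow of C was a low-fat diet and another chow was given during the WL period to WL mice and their controls, so chow type and WL period go together. No group carried a transgene according to the labels. Since the animals were pooled, differences between single mice cannot be seen, and the p-values below measure the spread between pooled libraries whose ages and feeding times also differ.

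Cells take up glucose through transporters of the SLC2A (GLUT) family, and hexokinase traps it as glucose 6-phosphate. Phosphofructokinase then makes the committed step, which the product of *Pfkfb3* speeds by making fructose 2,6-bisphosphate, and pyruvate kinase and lactate dehydrogenase end the pathway in pyruvate and lactate. Fat cells are best known for insulin-driven uptake through GLUT4, the product of *Slc2a4*, which is no member. HK2 is the insulin-responsive hexokinase of fat and muscle, and HK3 is chiefly a hexokinase of myeloid cells. Macrophages around dying fat cells in obese fat, the lipid-associated macrophages (LAMs), differ from perivascular macrophages (PVMs), which line vessels also in lean fat.

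RefSeq start sites (build GRCm38.p6) were found for 9 of the 10 members, in 13 windows of 300 bases that run from 250 bases before to 50 after a start. *Slc2a3* had no entry. The letters ACGTG or GCGTG, the core of the site that hypoxia-inducible factors bind, were searched on both strands and are in capitals. They occurred in 11 of the 13 windows and in at least 1 window of each of the 9 genes, beside 43.8% of all 32851 promoter windows of this length. The letters are rich in G and C, and so were most of these windows, at 49.0% to 69.7% G and C against a median of 52.7% over all promoters. A match is a description of the letters and shows no binding. The first windows of 4 genes described below are shown, a choice made after their values were seen. They are those of a transporter called in macrophages, of the hexokinases *Hk2* and *Hk3*, and of the phosphofructokinase regulator *Pfkfb3*. *Hk1*, which also differed between adipocytes and macrophages, is not shown. The core stands 0 times in its first window and 5 times in its second.
Slc2a1, chr4:119108495-119108794, plus strand: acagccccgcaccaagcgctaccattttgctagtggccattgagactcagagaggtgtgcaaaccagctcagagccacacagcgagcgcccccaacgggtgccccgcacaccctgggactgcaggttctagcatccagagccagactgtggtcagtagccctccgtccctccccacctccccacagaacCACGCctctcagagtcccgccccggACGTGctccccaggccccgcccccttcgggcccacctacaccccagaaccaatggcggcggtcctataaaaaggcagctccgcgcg
Hk2, chr6:82774405-82774704, minus strand: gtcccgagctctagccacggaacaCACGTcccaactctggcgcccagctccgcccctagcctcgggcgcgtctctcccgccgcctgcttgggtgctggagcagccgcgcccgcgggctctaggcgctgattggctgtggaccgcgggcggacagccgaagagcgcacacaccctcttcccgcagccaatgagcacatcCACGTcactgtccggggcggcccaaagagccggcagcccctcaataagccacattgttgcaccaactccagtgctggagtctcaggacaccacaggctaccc
Hk3, chr13:55021336-55021635, minus strand: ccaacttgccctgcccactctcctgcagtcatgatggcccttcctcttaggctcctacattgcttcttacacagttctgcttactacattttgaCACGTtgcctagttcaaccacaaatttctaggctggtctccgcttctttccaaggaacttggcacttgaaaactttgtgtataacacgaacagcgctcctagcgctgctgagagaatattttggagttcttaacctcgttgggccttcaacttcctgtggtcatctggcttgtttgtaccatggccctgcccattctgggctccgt
Pfkfb3, chr2:11553880-11554179, minus strand: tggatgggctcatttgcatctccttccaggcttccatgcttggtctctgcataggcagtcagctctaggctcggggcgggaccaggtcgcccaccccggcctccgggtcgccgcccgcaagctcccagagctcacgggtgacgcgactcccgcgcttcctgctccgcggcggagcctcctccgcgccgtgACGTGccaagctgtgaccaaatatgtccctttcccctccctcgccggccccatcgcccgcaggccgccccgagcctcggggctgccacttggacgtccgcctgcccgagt
In these 4 windows the core stands 2 times at *Slc2a1*, 2 times at *Hk2*, 1 time at *Hk3* and 1 time at *Pfkfb3*. The whole genes lie at chr4:119108711-119137983 (*Slc2a1*, plus strand), chr6:82725025-82774454 (*Hk2*, minus strand), chr13:55005985-55021385 (*Hk3*, minus strand) and chr2:11471433-11554077 (*Pfkfb3*, minus strand) in GRCm38, and *Slc2a3* at chr6:122727809-122801640 (minus strand). All 10 are annotated as protein-coding. *Slc2a3* shares stretches of at least 100 bases with 95% identity, the longest of 195 bases, with transcripts of 43 other genes. Of these, 39 are in the count tables, and part of its reads may have been lost or assigned elsewhere, which was not tested. *Pkm* and *Ldha* share such stretches with 2 and 8 other genes, 0 of them in the count tables.

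The libraries held 22599619 to 66615262 UMIs, and 3973 to 12518 nuclei per library passed the limits and the doublet call, with a median of 2085 to 3215 UMIs. Nuclei were put into classes by marker genes, none of them a member, each class needing more marker UMIs than free RNA of the same library would give. Adipocyte-gated nuclei numbered 181 in H, 426 in HH and 434 to 2638 in the other libraries, and macrophage-gated nuclei 298 to 3737. Levels are UMIs of a gene per 1e6 UMIs of the class in that library (CPM), so they compare 1 gene between classes and diets. Over all kept nuclei the members had between 2043 UMIs (*Pfkl*) and 29593 UMIs (*Pfkfb3*). The libraries fall into a set named S075 in the descriptions (C, H, HH, CCH, HCH) and a set named S019 (CC, CCC, HC, HHC). Both obese libraries are in S075 and both WL libraries in S019, so for the genes called in a diet fit and given with their values the text says how the call fared with the set as a term in the fit. A fit with the age of the mice as a block, added after seeing the data, sets H beside C, HC beside CC and HHC beside CCC. It leaves 1 residual degree of freedom, obesity then rests on H against C, and the members whose call it changed are given beside their values.

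The first question was which cells use which of these genes. Classes with at least 30 nuclei in at least 3 libraries were compared by edgeR's quasi-likelihood test with the library as a block, each class against the mean of the others. *Hk2* and *Hk3* split between fat cells and macrophages. *Hk2* was higher in adipocyte-gated nuclei by 3.71 ± 0.18 on the log2 scale (SE, adjusted p = 6.5e-32), and *Hk3* in macrophage-gated nuclei by 4.18 ± 0.18 (adjusted p = 1.4e-35). Their median levels were 289 CPM of *Hk2* in adipocytes against 51.3 CPM in macrophages, and 95.1 CPM of *Hk3* in macrophages against 4.40 CPM in adipocytes.

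**Figure D1:**
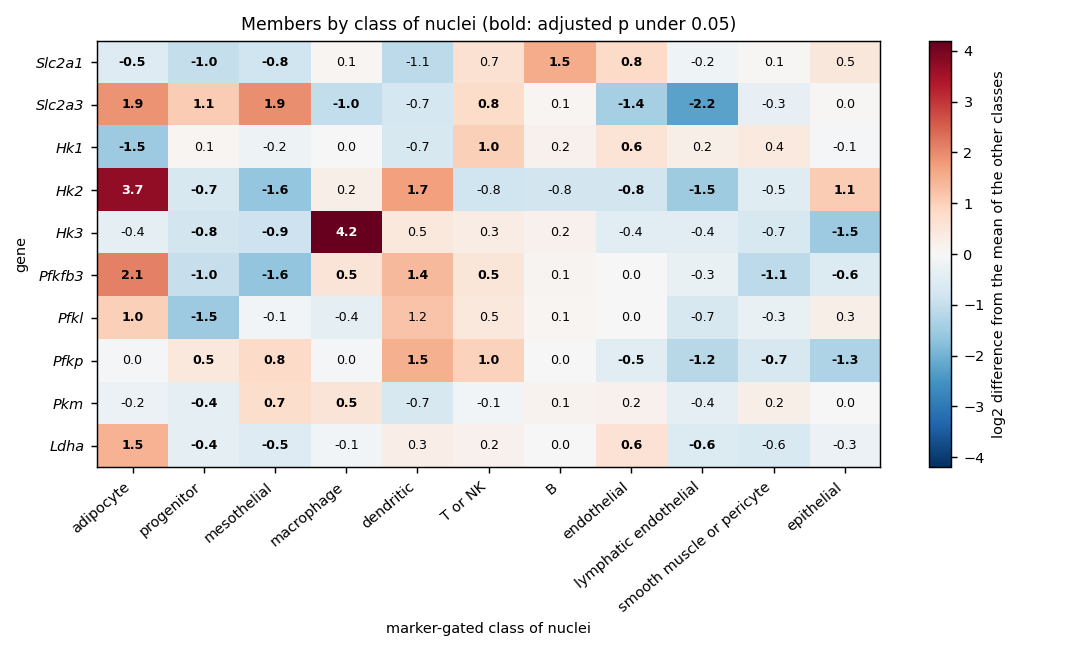
Log2 difference of each member (rows) in each marker-gated class of nuclei (columns) from the mean of the other classes, fitted with the library as a block. Bold values have an adjusted p under 0.05. Of the 9 libraries, a class enters with those holding at least 30 of its nuclei, which are 3 for dendritic nuclei. *Hk2* reaches 3.71 in adipocytes and *Hk3* 4.18 in macrophages, while most other values lie within 2 log2 units of 0.

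Among the transporters, *Slc2a3*, which encodes the high-affinity GLUT3, stood higher in mesothelial-gated nuclei (1.94 ± 0.19 log2 units, adjusted p = 6.4e-15), adipocytes (1.88 ± 0.19, adjusted p = 1.0e-14) and progenitors (1.06 ± 0.19, adjusted p = 2.8e-06). The highest median was that of mesothelial nuclei, 179 CPM, but they exceeded adipocytes (median 159 CPM) in 5 of 9 libraries, so the order of these neighbours was not settled over all libraries. Mesothelial nuclei held 412% and 865% of the adipocyte level in H and HH, and 44.5% to 174% in the other libraries. Progenitors held 170% and 527% of it in H and HH, and 27.0% to 94.3% in the others. The higher adipocyte value over all libraries thus does not describe H and HH. *Slc2a1*, the gene of the ubiquitous GLUT1, was higher in B cells by 1.55 ± 0.34 (adjusted p = 0.00014) and in endothelium by 0.81 ± 0.23 (adjusted p = 0.0034). *Slc2a1* was lower in progenitors (adjusted p = 0.00029), with a difference between -1.18 and -0.91 over 14 alternative fits. *Hk1*, the housekeeping hexokinase, was lower in adipocytes (-1.54 ± 0.16, adjusted p = 4.3e-14) and higher in T or NK cells (1.00 ± 0.18, adjusted p = 5.6e-06). *Pfkfb3* was higher in adipocytes by 2.10 ± 0.12 (adjusted p = 1.2e-26), as was *Ldha* by 1.46 ± 0.12 (adjusted p = 2.5e-18) and the liver-type phosphofructokinase gene *Pfkl* by 1.01 ± 0.17 (adjusted p = 4.2e-07). The platelet-type gene *Pfkp* was higher in dendritic-gated nuclei (1.48 ± 0.25, adjusted p = 1.2e-06), T or NK cells and mesothelium, and *Pkm* in mesothelium (0.74 ± 0.12, adjusted p = 1.3e-07) and macrophages (0.53 ± 0.11, adjusted p = 5.1e-05).

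Counted by class, 7 of the 10 members were called in adipocytes, beside 56.3% of the 14550 genes tested. In progenitors 9 members were called (44.7% of all genes) and in mesothelium 8 (43.3%). In endothelium 6 were called (35.5%), in macrophages 4 (48.0%), in epithelium 4 (48.9%) and in lymphatic endothelium 4 (27.9%). In T or NK cells 4 were called (30.2%), in dendritic nuclei 3 (23.6%), in smooth muscle or pericytes 2 (26.6%) and in B cells 1 (28.1%). The *Hk3* values outside macrophages have a measurement beside them. The 10 myeloid genes of the free-RNA check list reached 17.8% to 46.4% of their macrophage level in adipocyte-gated nuclei, and *Hk3* 0.864% to 13.3% of its own. This was below the list in all 9 libraries, and how much of it is free RNA was not tested. The same held for *Hk2* in macrophages, at 8.07% to 22.1% of its adipocyte level against 19.2% to 67.2% for the 8 adipocyte genes of the other check list, again below the list in 9 of 9 libraries.

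Both cell types were also compared directly. In macrophages against adipocytes of the same library 8 of 10 members were called (3 higher, 5 lower), beside 68.1% of 12630 genes. *Hk3* (3.89 to 4.89 log2 units over the alternative fits, adjusted p = 6.9e-07), *Hk1* (1.53 ± 0.18, adjusted p = 8.8e-06) and *Pkm* (0.76 ± 0.13, adjusted p = 0.00024) were higher in macrophages. *Hk2* (-2.98 ± 0.16, adjusted p = 5.5e-08), *Slc2a3* (-2.32 ± 0.33, adjusted p = 4.7e-05), *Ldha*, *Pfkfb3* and *Pfkl* were lower. Each of these 8 calls was also made in all 15 alternative fits. Of the hexokinase UMIs in adipocytes, 86.6% to 97.6% came from *Hk2* (79.6% to 97.6% per kilobase of gene), while in macrophages 28.6% to 64.7% came from *Hk3* (62.6% to 89.0% per kilobase). The per-kilobase share divides UMIs by gene length, and whether UMIs scale with length was not tested.

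The second question was what obesity and WL did to these genes in fat cells. *Slc2a3* stood at 408, 438 and 159 CPM in the lean libraries C, CC and CCC, and at 39.5 and 16.6 CPM in H and HH. It was 317 CPM in HC and 123 CPM in HHC, and 273 CPM in CCH against 101 CPM in HCH. The obese and lean libraries did not overlap, and HC lay within the lean range and HHC below it. The fitted difference between obese and lean was -3.87 ± 0.78 log2 units (SE, edgeR adjusted p = 0.021), and with the library set as a term -4.26 ± 0.87 (adjusted p = 0.043). Leaving out CC, H or HH ended the call, with an adjusted p of up to 0.21, and the value stayed between -4.58 and -3.37 in all 15 alternatives. The WL difference was -0.57 ± 0.63 (adjusted p = 0.83). *Slc2a1* was low throughout, 2.49 to 10.3 CPM on 4 to 44 UMIs, with an obese difference of -0.44 ± 0.56 (adjusted p = 0.61).

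*Hk2* rose in obesity. Its levels were 136, 263 and 252 CPM in C, CC and CCC, and 568 and 660 CPM in H and HH. The WL libraries had 326 CPM (HC) and 289 CPM (HHC), slightly above every lean library, and CCH and HCH had 164 and 298 CPM. The obese difference was 1.35 ± 0.31 (adjusted p = 0.032), 1.87 ± 0.35 with the library set as a term (adjusted p = 0.038), and it was positive in all 15 alternatives, from 0.99 to 1.87. The call was lost without CC, H or HH, with classes from clustering and without the upper limit on genes (adjusted p up to 0.24). For WL it was 0.55 ± 0.32 (adjusted p = 0.66). *Hk1* lay between 6.67 and 25.3 CPM, highest in HHC, and was called in neither comparison. *Hk3* had 1 to 34 UMIs per library, at 0.422 to 4.40 CPM in lean, 6.36 and 3.88 CPM in obese and 8.44 and 19.5 CPM in WL libraries. The summed level of the 10 myeloid check genes in the same nuclei went from 210 to 519 CPM in lean to 2529 and 2544 CPM in obese and 773 and 3671 CPM in WL libraries. The 10 macrophage gate markers went another way, from 505 to 620 CPM in lean to 392 and 427 CPM in H and HH and 376 and 744 CPM in HC and HHC. Nuclei that also passed the macrophage gate were set apart, which limits these sums. The part of macrophage RNA in the *Hk3* values was not tested.

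Of the phosphofructokinase group, *Pfkfb3* measured 211, 412 and 251 CPM in C, CC and CCC and 570 and 645 CPM in H and HH. These did not overlap, yet the fitted difference of 0.89 ± 0.39 did not pass (adjusted p = 0.15). With age as a block it did (1.13 ± 0.22, adjusted p = 0.039). CCH and HCH, both on HFD, had 493 and 439 CPM, and HC and HHC 343 and 213 CPM, which is the lean range. *Pfkl* ranged from 9.63 to 26.0 CPM and *Pfkp* from 35.9 to 110 CPM with the highest value in HC, and neither was called. *Pkm* ran from 23.2 to 55.1 CPM with an obese difference of 0.02 ± 0.27 (adjusted p = 0.97), and *Ldha* from 49.7 to 102 CPM with one of 0.39 ± 0.25 (adjusted p = 0.30).

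**Figure D2:**
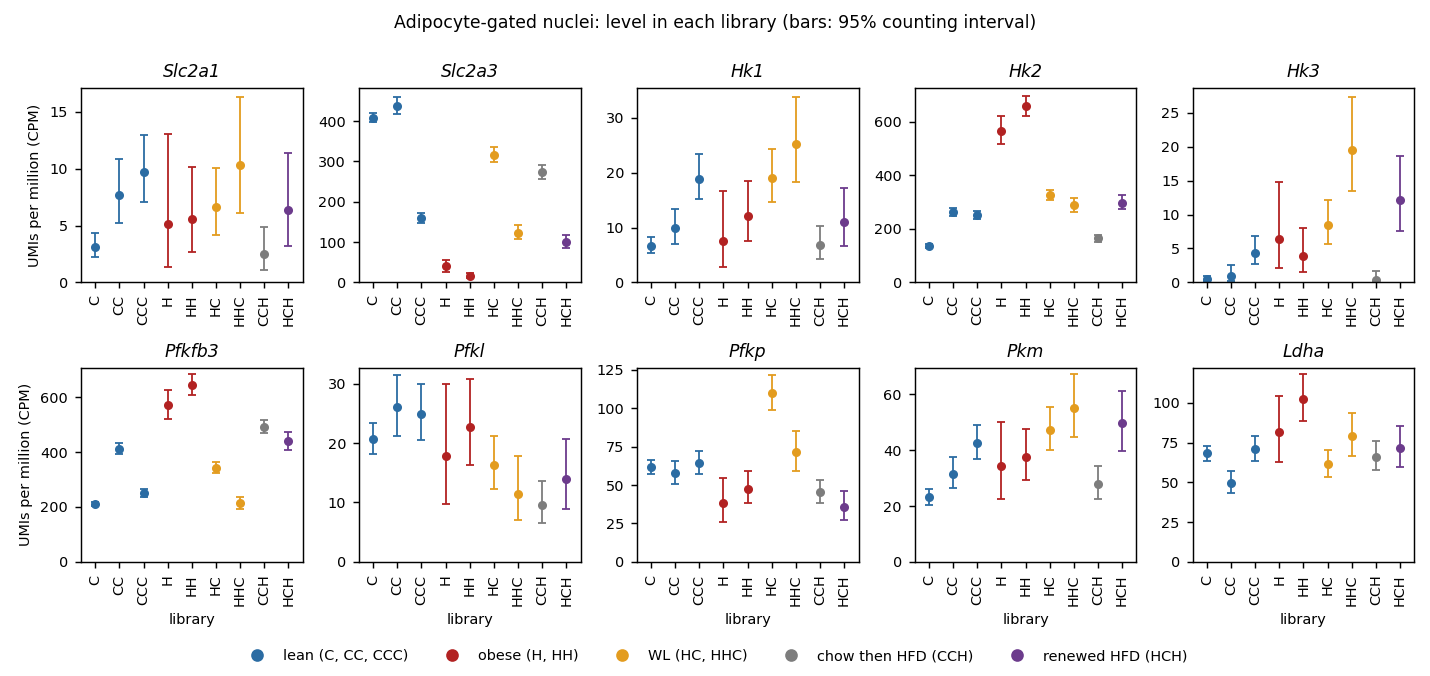
Level of each member in adipocyte-gated nuclei (CPM, from 0) in the 9 libraries, coloured by diet state, with 95% Poisson counting intervals that leave out the spread between mice. *Slc2a3* is lowest in H (39.5) and HH (16.6), where *Hk2* (568 and 660) and *Pfkfb3* (570 and 645) are highest.

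In fat cells 2 of 10 members were thus called in obesity, 1 in each direction, beside 12.7% of 14230 genes, a share close to the background. In WL 0 of 10 were called, beside 0.0% of the same genes. In that comparison edgeR called no gene at all, 1361 genes had an unadjusted p under 0.05, and DESeq2 called 237 genes with 1 member among them, *Hk3*. The members with an unadjusted p under 0.05 were 3, *Hk1*, *Hk3* and *Pkm*. *Hk3* reached the 3.02 CPM that edgeR's filter on low counts asks for in 1 lean library and in both obese and both WL libraries. It thus entered the edgeR fit through the groups where it is high, and its WL value counts as no support.

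In macrophages 5 members were called in obesity. *Slc2a1* was at 2.15, 6.08 and 4.06 CPM in C, CC and CCC, on 7, 7 and 3 UMIs, and at 23.5 and 11.6 CPM in H and HH. HC and HHC kept 21.1 and 22.4 CPM, and CCH and HCH had 3.90 and 8.17 CPM. No obese or WL library overlapped a lean one. *Slc2a1* rose in obesity by 2.11 ± 0.49 log2 units (adjusted p = 0.014) and in WL by 2.55 ± 0.49 (adjusted p = 0.019). With the library set as a term the values were 2.83 ± 0.64 (adjusted p = 0.037) and 2.03 ± 0.53 (adjusted p = 0.096). Without C the obese call ended, as it did without H and with classes from clustering, where the smallest value was 0.73 (adjusted p up to 0.32). The WL call ended without C, without HHC and with classes from clustering (adjusted p up to 0.14).

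*Slc2a3* went the other way. It measured 57.7, 91.2 and 55.5 CPM in C, CC and CCC and 17.1 and 12.9 CPM in H and HH, with 39.6 CPM in HC, 17.5 CPM in HHC, 18.8 CPM in CCH and 22.3 CPM in HCH. All lean libraries lay above all others. The obese difference was -2.34 ± 0.44 (adjusted p = 0.0068, 0.046 with the library set as a term and 0.053 without HH), and that of WL -1.29 ± 0.42 (adjusted p = 0.12). With age as a block the WL value was called (-1.42 ± 0.28, adjusted p = 0.0074). The macrophage level of *Slc2a3*, as a share of its adipocyte level, exceeded that of the adipocyte check genes in 3 of 9 libraries, and how far free adipocyte RNA enters these values was not tested. The summed level of the 10 adipocyte gate markers in the same macrophage-gated nuclei was 2517, 6041 and 1826 CPM in C, CC and CCC, 775 and 929 CPM in H and HH, and 2424 and 1527 CPM in HC and HHC, none of the markers being at 0. The 8 adipocyte check genes were at 2470, 6999 and 2749 CPM in C, CC and CCC and 4901 and 3881 CPM in H and HH. They were at 3776 and 4863 CPM in HC and HHC. In CPM the obese libraries thus lay above C and CCC. These genes were also higher in obese adipocytes, at 16939 and 18427 CPM in H and HH against 8751 to 11681 CPM in lean libraries. As a share of their adipocyte level they were at 21.1%, 67.2% and 31.4% in macrophages of C, CC and CCC. H and HH had 28.9% and 21.1%, and HC and HHC 51.2% and 53.8%.

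*Hk3* was at 48.8, 39.9 and 60.9 CPM in C, CC and CCC, and at 129 CPM in H and 106 CPM in HH. It stayed at 125 CPM in HC and 147 CPM in HHC, and was 36.0 CPM in CCH but 95.1 CPM in HCH. *Hk3* rose in obesity by 1.09 ± 0.20 (adjusted p = 0.0066) and in WL by 1.43 ± 0.20 (adjusted p = 0.0050). The WL call was made in all 15 alternatives, the library set term included, and the obese one in 14, the exception being the fit without H (adjusted p = 0.067). *Hk1* was at 31.0, 41.7 and 27.1 CPM in C, CC and CCC, 36.6 and 34.0 CPM in H and HH and 49.1 and 49.2 CPM in HC and HHC, both WL libraries lying above the lean ones. *Hk2* ran from 16.5 to 58.7 CPM, and neither gene was called, though with age as a block *Hk2* was called in obesity (1.28 ± 0.37, adjusted p = 0.031).

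*Pfkfb3* was higher in lean than in obese macrophages, at 164, 298 and 204 CPM in C, CC and CCC against 103 and 113 CPM in H and HH, and it fell by 1.19 on the log2 scale (-1.19 ± 0.28, adjusted p = 0.015, and 0.11 with the library set as a term). That call also ended without H, without HH, with classes from clustering and with age as a block (adjusted p = 0.054). In the same obese nuclei the adipocyte gate markers were lower than in lean ones. The adipocyte check genes were above C and CCC in CPM, and their shares of the adipocyte level are given above. As a share of its adipocyte level *Pfkfb3* was at 18.0% in H and 17.6% in HH, below the 28.9% and 21.1% of the adipocyte check genes, and it was above them in 6 of 9 libraries. The part of free adipocyte RNA in this difference was not tested. In WL it measured 207 and 166 CPM, within the lean range. *Pkm*, whose product makes pyruvate, was at 38.6, 47.8 and 55.5 CPM in lean and 118 and 71.3 CPM in obese libraries and rose by 0.87 ± 0.26 (adjusted p = 0.034, and 0.072 with the library set as a term). Without C, CC or H, and with classes from clustering, *Pkm* was not called (adjusted p up to 0.70), and its lowest value was 0.13. In HC and HHC *Pkm* was 100 and 92.5 CPM, a difference of 1.03 ± 0.26 that missed the threshold (adjusted p = 0.055) and passed it with age as a block (0.90 ± 0.25, adjusted p = 0.045). *Pfkl*, *Pfkp* and *Ldha* were called in neither comparison. In all, 5 of 10 members were called in obese macrophages (3 higher, 2 lower), beside 31.0% of 13848 genes, and 2 of 10 in WL (both higher), beside 6.49%.

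**Figure D3:**
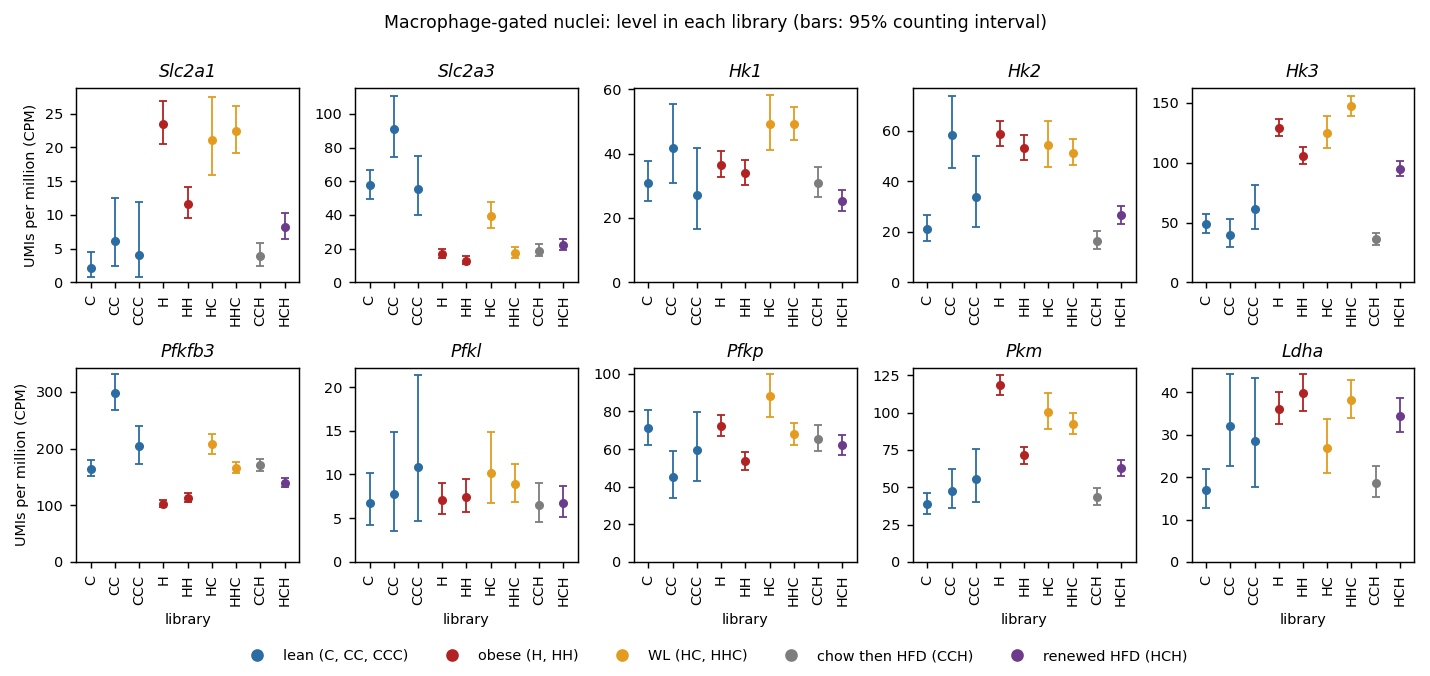
Level of each member in macrophage-gated nuclei (CPM, from 0) in the 9 libraries, coloured by diet state, with 95% Poisson counting intervals. *Hk3*, *Slc2a1* and *Pkm* lie higher in the obese (H, HH) and WL (HC, HHC) libraries than in C, CC and CCC, and *Slc2a3* lies lower.

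The make-up of the macrophages changed with diet at the same time. LAM-gated nuclei were 1.57%, 0.865% and 2.01% of macrophage-gated nuclei in C, CC and CCC, 27.8% and 23.8% in H and HH, 39.5% and 33.7% in HC and HHC, 1.74% in CCH and 19.7% in HCH. LAM- and PVM-gated nuclei were compared within the 5 libraries holding at least 30 of each (H, HH, HC, HHC, HCH). *Hk3* was at 172 to 216 CPM in LAMs and 68.4 to 83.8 CPM in PVMs, with no overlap, and higher by 1.35 ± 0.08 log2 units (adjusted p = 9.2e-09). *Slc2a1* was at 11.6 to 48.2 CPM against 4.15 to 8.11 CPM, higher by 2.30 ± 0.23 (adjusted p = 1.5e-06). *Pkm* was at 95.4 to 168 CPM against 38.8 to 58.6 CPM (1.43 ± 0.10, adjusted p = 5.0e-08) and *Pfkp* at 71.5 to 123 CPM against 35.3 to 52.3 CPM (0.96 ± 0.11, adjusted p = 7.4e-06).

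Each of these 4 was higher in LAMs in all 5 libraries, and each was called in all 11 alternatives. *Hk1* was higher by 0.37 ± 0.13 (adjusted p = 0.036), a call made in 6 of the 11. *Slc2a3* (-1.19 ± 0.24, adjusted p = 0.0012) and *Pfkfb3* (-0.36 ± 0.09, adjusted p = 0.0062) were lower in LAMs, although *Slc2a3* was not lower in HC, with 34.4 CPM in LAMs and 30.4 CPM in PVMs. Both calls were made in 10 of the 11 alternatives and ended without the library term (adjusted p = 0.24 and 0.59). *Hk2*, *Pfkl* and *Ldha* were not called. The 7 members called (5 higher, 2 lower) stand beside 35.7% of 11266 genes.

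**Figure D4:**
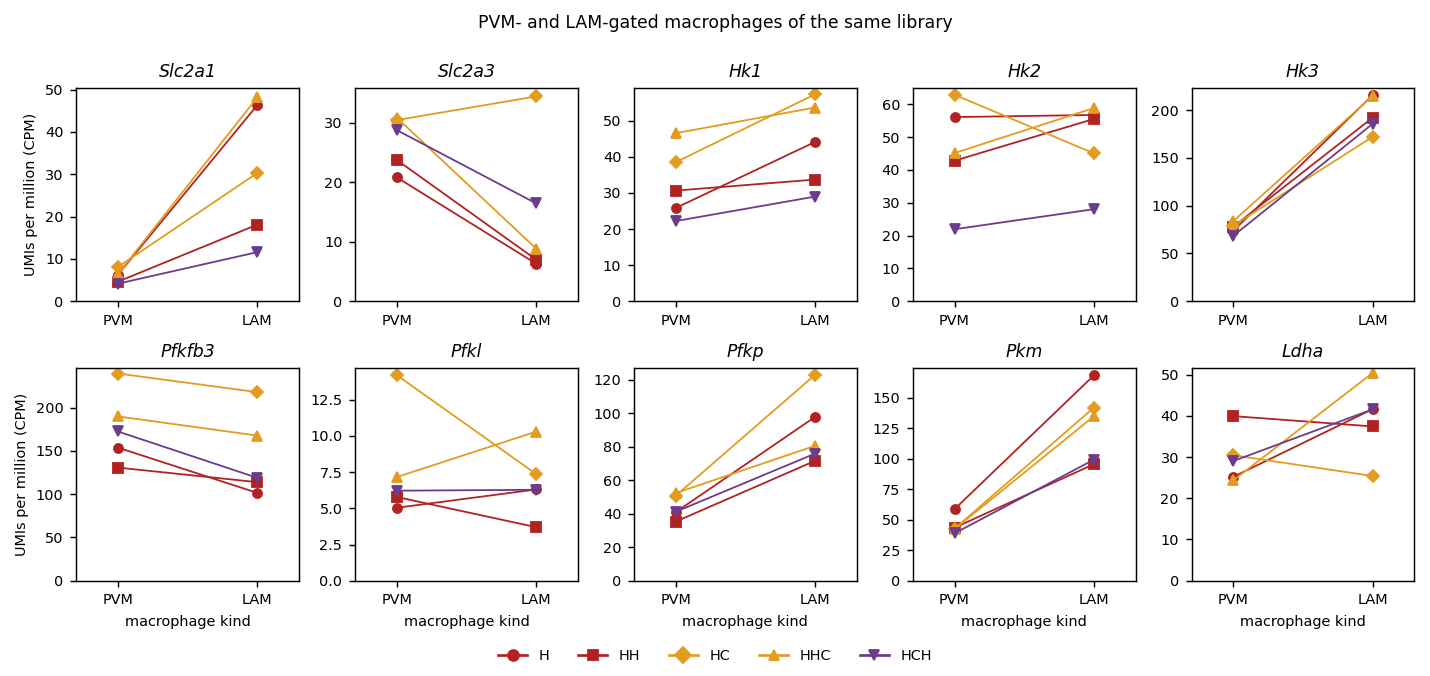
Level of each member (CPM, from 0) in PVM-gated (left) and LAM-gated (right) macrophages, 1 line per library for the 5 libraries with at least 30 nuclei of both. All lines climb for *Slc2a1*, *Hk1*, *Hk3*, *Pfkp* and *Pkm*, and 4 of 5 descend for *Slc2a3*.

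PVM-gated macrophages taken alone, a comparison chosen after seeing the data, gave an obese difference of -1.72 ± 0.34 for *Slc2a3* (adjusted p = 0.012), the 1 member called of 9 tested, beside 15.7% of 11506 genes. In WL 0 of 9 were called, beside 0.669%. *Hk3* measured 46.0, 41.1 and 67.8 CPM in PVMs of C, CC and CCC, 73.7 and 78.1 CPM in H and HH and 79.1 and 83.8 CPM in HC and HHC. These did not overlap either, but the obese difference was 0.45 ± 0.24 (adjusted p = 0.23) and that of WL 0.65 ± 0.25 (adjusted p = 0.32). *Pkm* differed by 0.19 ± 0.28 in obesity (adjusted p = 0.68) and *Pfkfb3* by -0.81 ± 0.27 (adjusted p = 0.073). *Slc2a1* had too few UMIs in PVMs to be fitted. The calls of *Hk3* and *Pkm* in all macrophages were thus not made in PVMs alone, and the fit rests on fewer nuclei.

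The third question was whether the same shifts occurred in the other classes. In progenitors *Slc2a3* was at 112, 180 and 127 CPM in C, CC and CCC and 66.9 and 87.6 CPM in H and HH, and fell by 1.07 on the log2 scale (-1.07 ± 0.27, adjusted p = 0.031). *Pfkfb3* was at 42.8, 154 and 75.4 CPM in lean and 30.3 and 37.4 CPM in obese libraries (-1.64 ± 0.47, adjusted p = 0.045). The adipocyte gate markers in these nuclei summed to 2801, 6534 and 2265 CPM in C, CC and CCC and 1428 and 1365 CPM in H and HH, with CC highest as for both genes. The adipocyte check genes were at 1686, 6678 and 1813 CPM in C, CC and CCC and 1339 and 1657 CPM in H and HH. As a share of the adipocyte level *Pfkfb3* was above the adipocyte check genes in 2 of 9 libraries and *Slc2a3* in 8 of 9, and the part of free adipocyte RNA in either difference was not tested. *Hk3* had 1, 4 and 1 UMIs in C, CC and CCC, 0.219 to 1.97 CPM, against 7.44 and 3.43 CPM in obese (2.48 ± 0.72, adjusted p = 0.045) and 11.9 and 13.6 CPM in WL libraries (3.86 ± 0.68, adjusted p = 0.035). It passed the count filter, which asks for 2.19 CPM in this class, through the obese and WL libraries alone, in 0 of 3 lean libraries, so its calls had to lie in that direction and count as no support. The myeloid check genes in progenitors went from 187 to 338 CPM in lean to 3439 and 4373 CPM in obese and 919 and 3466 CPM in WL libraries, the macrophage gate markers from 205 to 319 CPM in lean to 493 and 669 CPM in obese and 356 and 624 CPM in WL libraries, and *Hk3* was below their share of the macrophage level in 9 of 9 libraries. With the library set as a term, none of these calls was made (adjusted p = 0.14 for *Slc2a3*, 0.38 for *Pfkfb3*, and 0.069 and 0.14 for *Hk3*). With age as a block *Slc2a3* (adjusted p = 0.051) and *Pfkfb3* (adjusted p = 0.20) were not called either. Leaving out CC, CCC, H or HH also ended the *Slc2a3* and *Pfkfb3* calls, and leaving out HHC that of *Pfkfb3*. The obese *Hk3* call was made in 5 of 15 alternatives and the WL one in 8. The 3 of 10 members called in obesity and 1 of 10 in WL, *Hk3* among both, stand beside 16.7% and 1.08% of 15046 genes.

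In endothelium 8 of the 10 members had enough UMIs to be tested, *Hk3* and *Pfkl* being left out, and edgeR called none in obesity (0 of 8, beside 5.27% of 9998 genes) or WL (0 of 8, beside 0.27%). *Hk2* was 11.6, 59.7 and 64.4 CPM in C, CC and CCC and 1.94 and 4.57 CPM in H and HH there (-3.64 ± 0.95, adjusted p = 0.057). The obese values rest on 1 UMI in H and 3 UMIs in HH. DESeq2 called 3 members in obese endothelium, beside 4.41% of the 14861 genes it tested. They were *Slc2a3*, *Hk2* and *Pfkfb3*, all lower, and the same 3 had an unadjusted p under 0.05 with edgeR. *Slc2a3* and *Hk2* reached the 15.3 CPM that edgeR's count filter asks for in this class in 0 obese libraries. Their obese differences with edgeR thus had to be falls and count as no support. In WL, 0 members had one, and DESeq2 called 0, while with age as a block edgeR called *Slc2a3* (-1.43 ± 0.42, adjusted p = 0.016). The adipocyte gate markers in endothelial nuclei summed to 3615, 7673 and 3895 CPM in C, CC and CCC and 1953 and 1605 CPM in H and HH. The adipocyte check genes stood there at 36.5% to 177% of their adipocyte level, so they give no measure of free RNA in this class, and its part in these values was not tested.

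The difference in response between classes was itself tested, in 6 fits added after seeing the data. Of 60 combinations of member and fit 11 were called. In obesity these were 2 of 10 for adipocytes against macrophages (beside 6.13% of genes), 3 of 10 for adipocytes against progenitors (3.08%) and 3 of 10 for macrophages against progenitors (12.0%). In WL they were 0 of 10 (0.375%), 0 of 10 (0.0% by edgeR, with 835 genes at an unadjusted p under 0.05) and 3 of 10 (5.38%), in the same order. The obese difference of *Pfkfb3* was larger in adipocytes than in macrophages by 2.02 ± 0.27 log2 units (adjusted p = 0.0031) and than in progenitors by 2.29 ± 0.34 (adjusted p = 0.0086). In the main diet fits its rise in adipocytes was not called, while its falls in macrophages and progenitors were. The part of free adipocyte RNA in those falls was not tested. For *Hk2* the adipocyte response exceeded that of progenitors by 1.67 ± 0.36 (adjusted p = 0.035), a call not made with classes from clustering. *Hk2* in progenitors was at 3.44% to 21.9% of its adipocyte level, below the adipocyte check genes in 9 of 9 libraries, and the part of free adipocyte RNA in this difference was not tested. For *Slc2a1* the macrophage response exceeded that of adipocytes by 2.27 (-2.27 ± 0.54 as adipocytes minus macrophages, adjusted p = 0.034), but with classes from clustering the value was -0.64 and was not called (adjusted p = 0.54). *Slc2a3* fell further in adipocytes than in progenitors (-2.85 ± 0.64, adjusted p = 0.043), and its adipocyte and macrophage responses differed by -1.59 ± 0.46 (adjusted p = 0.074), a difference called with the stricter gate (adjusted p = 0.047), without the upper limit on genes (adjusted p = 0.017) and with classes from clustering (adjusted p = 0.0098).

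Single libraries were then set side by side, from the same library set unless said otherwise, with exact conditional 95% intervals of the ratio that cover counting error only and with no test, since each side is 1 library. In adipocytes *Slc2a3* in H and HH was below C by 3.37 and 4.62 log2 units (log2 ratio -3.37, 95% interval -3.93 to -2.86, and -4.62, -5.19 to -4.10). In HCH it was below CCH (-1.44, -1.68 to -1.20), although both had 4 weeks of HFD at the end. *Hk2* was above C in H and HH (2.06, 1.90 to 2.21, and 2.28, 2.17 to 2.39) and above CCH in HCH (0.86, 0.68 to 1.04), while HC and HHC were within 0.31 log2 units of CC and CCC. *Pfkfb3* exceeded C in H and HH (1.44, 1.29 to 1.58, and 1.61, 1.51 to 1.71) and was lower in HCH than in CCH (-0.17, -0.29 to -0.04).

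In macrophages *Hk3* was above its control in every pair, from 1.12 (HH against C, 0.87 to 1.37) to 1.65 (HC against CC, 1.20 to 2.12), with 1.40 (1.18 to 1.63) for HCH against CCH. *Slc2a1* ratios ran from 1.07 (HCH against CCH, 0.36 to 1.83) to 3.45 (H against C, 2.39 to 4.78). *Slc2a3* was lower in H, HH, HC and HHC than in their controls, from -2.16 to -1.20, whereas HCH against CCH gave 0.25 (-0.10 to 0.61). Ratios of at least 2-fold with 20 UMIs or more were then counted. For HH the control was CC, which is of the other library set, and the counts against C, of the same set, are given as well. In adipocytes 3 of 9 countable members differed between H and C, beside 38.3% of genes, and 3 of 9 between HH and CC (36.6%) or C (38.8%). There 1 of 10 differed between HC and CC (13.5%), 2 of 10 between HHC and CCC (18.1%) and 2 of 9 between HCH and CCH (19.7%). In macrophages 6 of 10 differed between H and C (38.1%), 3 of 10 between HH and CC (1 higher and 2 lower, 43.8%), 5 of 10 between HH and C (4 higher and 1 lower, 38.4%), 4 of 10 between HC and CC (22.1%), 3 of 10 between HHC and CCC (23.9%) and 2 of 10 between HCH and CCH (19.6%).

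**Figure D5:**
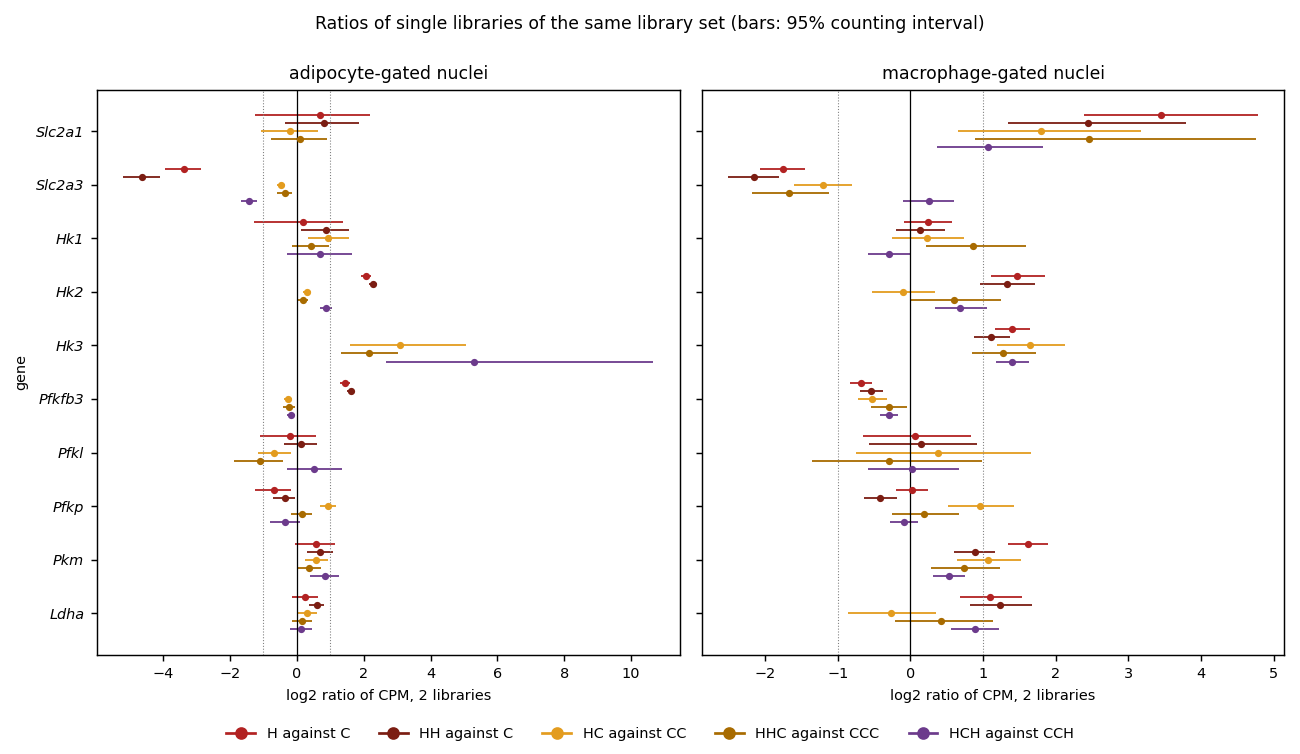
Log2 ratio of the level (CPM) between 2 libraries of the same library set for each member in adipocyte- and macrophage-gated nuclei, with exact 95% counting intervals. Dotted lines mark 2-fold, and pairs with fewer than 20 UMIs are left out. In macrophages *Hk3* and *Slc2a1* lie right of 0 in all 5 pairs, and in adipocytes *Slc2a3* lies left of 0 in all 5.

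The other genes of glucose handling were counted by list, apart from the regulators of phosphofructokinase and glucose uptake. Of these, *Pfkfb1* stood at 551, 385 and 281 CPM in adipocytes of C, CC and CCC and at 325 and 264 CPM in H and HH. It was lower in macrophages than in adipocytes (-4.17 ± 0.34, adjusted p = 6.3e-07). *Pfkfb1* was also called lower in obese macrophages, progenitors and endothelium. Alternatives of these calls are not given, and the part of free adipocyte RNA was not tested. Of the 14 remaining glycolytic enzymes, 10 were tested in adipocytes and 2 rose in obesity (12.7% of all genes were called), *Tpi1* (1.48 ± 0.41, adjusted p = 0.048) and *Eno1* (1.13 ± 0.31, adjusted p = 0.049). In the same nuclei the adipocyte check genes summed to 8751 to 11681 CPM in lean libraries and 16939 and 18427 CPM in H and HH. The myeloid check genes rose there too, as given above. The part of either shift in the adipocyte rises of this paragraph was not tested. *Tpi1* was called in 10 of 15 alternatives, the library set term included (adjusted p = 0.048), and *Eno1* in 3, and both calls ended without any one of C, CC, H or HH. In macrophages 4 of 11 rose and 1 fell, beside 31.0% of all genes called in either direction. The largest rise was that of *Eno2*, an enolase (2.61 ± 0.52, adjusted p = 0.0086), which was also higher in WL (2.82 ± 0.53, adjusted p = 0.017) and in LAMs over PVMs (3.18 ± 0.31, adjusted p = 9.2e-07). In lean macrophages *Eno2* was at 2.15, 2.60 and 0 CPM in C, CC and CCC, on 7, 3 and 0 UMIs. The count filter asks for 3.07 CPM in this class. Its obese and WL calls thus had to be rises and count as no support. With the library set as a term *Eno2* was not called in obesity (adjusted p = 0.059) or WL (adjusted p = 0.076), and the obese call also ended without H and with classes from clustering, and the WL one without C or HHC. In LAMs 6 of 9 of these enzymes and 4 of 6 genes of the pentose phosphate branch were higher and none lower, beside 35.7% of all genes called in either direction, among the latter *Taldo1* (1.11 ± 0.15, adjusted p = 2.7e-05) and *Pgd* (0.99 ± 0.13, adjusted p = 2.2e-05). Of the 12 genes of lactate and pyruvate handling, *Pdk4*, which holds back pyruvate oxidation, rose in obese adipocytes (2.98 ± 0.52, adjusted p = 0.016) together with *Ldhb* (1.18 ± 0.31, adjusted p = 0.044). *Pdk4* was also called with the library set as a term (adjusted p = 0.030) and *Ldhb* was not (adjusted p = 0.11), and both calls ended without CC, H or HH, that of *Ldhb* also without C. The lactate and pyruvate transporter gene *Slc16a7* was lower in LAMs (-1.02 ± 0.08, adjusted p = 6.7e-08) and in obese progenitors (-1.77 ± 0.36, adjusted p = 0.017). The progenitor call was not made with the library set as a term (adjusted p = 0.091), without H or without HH. The adipocyte gate markers and check genes were lower in the same obese progenitors than in lean ones, as given above, and the part of free adipocyte RNA was not tested.

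Of the 10 hypoxia-response genes, 0 of 8 tested were called in obese adipocytes (12.7% of all genes called). In obese macrophages 3 of 8 fell (31.0%) and in obese progenitors 4 of 9 (16.7%), *Bnip3* among both. *Vegfa*, an angiogenic growth factor, was lower in obese macrophages (-2.41 ± 0.43, adjusted p = 0.0060), progenitors (-1.46 ± 0.27, adjusted p = 0.013) and endothelium (-2.00 ± 0.37, adjusted p = 0.017). In WL it was lower in macrophages (-2.19 ± 0.44, adjusted p = 0.022) and progenitors (-1.60 ± 0.27, adjusted p = 0.032), and it was higher in LAMs than in PVMs (1.02 ± 0.22, adjusted p = 0.0020). *Vegfa* was 3.87 log2 units lower in macrophages than in adipocytes (-3.87 ± 0.29, adjusted p = 3.1e-07). With the library set as a term *Vegfa* was called in obese macrophages (adjusted p = 0.044), obese endothelium (adjusted p = 0.024) and WL macrophages (adjusted p = 0.049), and not in obese (adjusted p = 0.056) or WL progenitors (adjusted p = 0.10). Without H or HH the calls of obese progenitors and endothelium ended, as did that of WL macrophages without HC or HHC, and that of WL progenitors was made in 8 of 15 alternatives. The adipocyte gate markers were lower in the obese nuclei of all 3 classes. In CPM the adipocyte check genes were lower in obese progenitors and above C and CCC in obese macrophages. As a share of their adipocyte level these genes were at 28.9% and 21.1% in macrophages of H and HH. Macrophages of C, CC and CCC had 21.1%, 67.2% and 31.4%. In endothelium the check genes were at 5169, 18476 and 13286 CPM in C, CC and CCC and 6773 and 6727 CPM in H and HH. The part of free adipocyte RNA in the *Vegfa* values was not tested. Of the 9 other genes of the SLC2A (GLUT) family, 0 of 6 were called in obese adipocytes (12.7% of all genes). In obese macrophages 3 of 5 (*Slc2a4*, *Slc2a9* and *Slc2a13*) fell (31.0%), and 1 of 7 fell in obese progenitors (16.7%). In adipocytes *Slc2a4* stood at 41.6, 34.4, 35.4, 67.5 and 70.9 CPM in C, CC, CCC, H and HH. It was 3.34 log2 units lower in macrophages than in adipocytes (-3.34 ± 0.44, adjusted p = 2.8e-05), and its obese values in macrophages (-2.91 ± 0.61, adjusted p = 0.0096) and progenitors (-3.00 ± 0.55, adjusted p = 0.012) were negative too. In macrophages of H and HH *Slc2a4* was at 0.949 and 1.75 CPM, under the 3.07 CPM that the count filter asks for. The macrophage call of *Slc2a4* thus had to be a fall and counts as no support. In progenitors *Slc2a4* was at 8.99 and 14.8 CPM in C and CC, where the filter asks for 2.19 CPM. A fall of the fitted size ends near that limit, so the progenitor call is not counted as support either. *Slc2a13* was at 14.1, 38.2 and 6.77 CPM in macrophages of C, CC and CCC and at 1.37 and 0.582 CPM in H and HH, the obese values on 13 and 5 UMIs (-4.47 ± 0.95, adjusted p = 0.010). Both obese values were under the 3.07 CPM of the count filter, so this call had to be a fall and counts as no support. *Slc2a13* was lower in macrophages than in adipocytes (-4.66 ± 0.42, adjusted p = 1.2e-06). With the library set as a term neither *Slc2a4* (adjusted p = 0.062 in macrophages and 0.065 in progenitors) nor *Slc2a13* (adjusted p = 0.060) was called. The *Slc2a4* calls ended without H as well, in progenitors also without HH, and that of *Slc2a13* without HH. The part of free adipocyte RNA in these values was not tested.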

How the data were processed

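The deposited files hold raw UMI counts per gene and barcode for 9 libraries of 10x 3′ single-nucleus RNA-seq; per the labels and the submitters' processing notes the authors used Cell Ranger 6.1.2 with mm10 and Seurat 4.1.0. No normalization was applied to these counts. By the study's methods, free RNA was estimated with SoupX in each mouse library, and none was judged to need correction. That estimate was not repeated here. Nuclei were kept between the limits of 500 and 3000 genes seen, up to 40000 UMIs, as in the study's methods. Doublets were called with Scrublet in scanpy 1.11.5 (expected 0.8% per 1000 barcodes), and where it marked under 0.5%, as in CC, CCC, HC and HHC, the top scores at the expected rate were removed. Scrublet, the gate, the sums and the tables ran under Python 3.11.15.

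A nucleus was gated to a class when it had at least 3 of the class's markers, a Poisson tail under 0.001 and at least 2 times the UMIs that free RNA would give, the free level being estimated over 4 rounds from nuclei of other classes. This scoring rule was chosen after seeing the data. LAM and PVM gates needed 2 markers. Mitochondrial genes and *Malat1*, 14 in all, were left out of the sums. The markers, among them Adipoq and Plin1 for adipocytes, Adgre1 and Csf1r for macrophages, Pdgfra and Dcn for progenitors, Pecam1 and Cdh5 for endothelium, Trem2 and Gpnmb for LAMs and Lyve1 and Cd163 for PVMs, hold no member. The myeloid check list has 10 genes (such as Lyz2) and the adipocyte check list 8 (such as Fabp4), and neither is in a gate. Nuclei that passed several gates were set apart. The sums of another class's gate markers in gated nuclei are therefore limited by the gate itself. In CC, 246 of 900 adipocyte-gated nuclei were under 3-fold above the free level. Pairs of libraries shared at most 55 barcodes.

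UMIs were summed per library and class and tested with edgeR 4.0.16 in R 4.3.3 (TMM, filterByExpr, glmQLFit, Benjamini-Hochberg over all genes, threshold 0.05). Diet fits took 7 libraries (3 lean, 2 obese, 2 WL), leaving CCH and HCH out, and class fits had the library as a block. Each group is 1 library, and counting intervals (95%, exact) cover counting error only. A ratio of single libraries was called at 2-fold with at least 20 UMIs. The fits and intervals were tested on simulated data. All 10 members were looked up in every comparison, but not every member is named in each. Other pathway genes named with a fit were chosen among those past the threshold, mostly by largest change, and not all of those are named. The members and lists were chosen with earlier results of these data known. Alternatives were DESeq2 1.42.0, its size factors, no filter, the library set as a term, no library term, each library left out, no upper gene limit, doublets kept, a gate with 4 markers, age as a block (added after seeing the data), and classes from clustering (2000 variable genes, 30 components, 20 neighbours, resolution 1).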

Additional observations from a re-analysis of the deposited data

Results flagged for a closer look

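The response to diet differed between classes of nuclei for 11 of 60 combinations of member and comparison, beside 0.0% to 12.0% of all genes called in the same fits, by the interaction term of edgeR's quasi-likelihood fit over 7 libraries, a test added after seeing the data. Values are log2 differences, the response in the first class minus that in the second. For obesity, adipocytes against macrophages gave -2.27 for *Slc2a1* (adjusted p = 0.034) and 2.02 for *Pfkfb3* (adjusted p = 0.0031). Adipocytes against progenitors gave -2.85 for *Slc2a3* (adjusted p = 0.043), 1.67 for *Hk2* (adjusted p = 0.035) and 2.29 for *Pfkfb3* (adjusted p = 0.0086). Macrophages against progenitors gave 1.78 for *Slc2a1* (adjusted p = 0.035), -1.21 for *Slc2a3* (adjusted p = 0.016) and 1.02 for *Hk2* (adjusted p = 0.037).

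For WL, macrophages against progenitors gave 1.89 for *Slc2a1* (adjusted p = 0.048), -1.28 for *Slc2a3* (adjusted p = 0.022) and -2.56 for *Hk3* (adjusted p = 0.028), which had 1, 4 and 1 UMIs in lean progenitors. The *Pfkfb3* values kept their call with a stricter gate, without the upper gene limit and with classes from clustering, and so did *Slc2a3* of adipocytes and of macrophages against progenitors in obesity. With classes from clustering the *Slc2a1* values of obesity were -0.64 and 0.31 and were not called. *Hk2* was not called with classes from clustering (1.67 and 0.90). In WL *Hk3* was called in none of these 3 alternatives, *Slc2a1* was called without the upper gene limit alone, and *Slc2a3* was not called with the stricter gate. The library set was not a term in these fits. Its part and that of free adipocyte RNA were not tested.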

How the results depend on the processing

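The labels carry no replicate numbers, since each diet group is 1 library, so diets could not be paired by number. Class fits and LAMs against PVMs were paired by library. The age of the mice pairs H with C, HC with CC and HHC with CCC, and a fit with age as a block was added after seeing the data. It leaves 1 residual degree of freedom, and HH, alone at its age, adds nothing, so obesity rests on H against C. It gave, in obesity, 1115 genes in endothelium, 2536 in macrophages and 1372 genes and 1 member (*Hk3*) in progenitors, and in WL 198 genes in adipocytes, 728 genes and 1 member (*Slc2a3*) in endothelium, 4 members in macrophages and 398 genes in progenitors. *Pfkfb3* was then called in obese adipocytes (1.13, adjusted p = 0.039) and not in obese macrophages (adjusted p = 0.054), where *Hk2* was called (1.28, adjusted p = 0.031). Counts here and below are genes, then members where given, called by the diet fits. The number of genes tested differed between settings. Member counts without a share over all genes beside them describe the settings and are no result about the members. DESeq2 called 3 members in obese endothelium and, in WL, 237 genes and 1 member in adipocytes, 80 genes in endothelium, 1383 in macrophages and 442 in progenitors. Its size factors in edgeR gave 2 members in obese endothelium. With the library set as a term, obesity gave 677 genes in adipocytes, 1973 genes and 3 members in macrophages and 179 genes and 0 members in progenitors, and WL gave 45 genes in endothelium, 487 genes and 1 member in macrophages and 26 genes and 0 members in progenitors. With no filter, obesity gave 3546 genes in adipocytes, 1333 genes and 3 members in endothelium and 3963 genes in progenitors, and WL gave 860 genes and 1 member in adipocytes, 309 and 1 in endothelium, 2250 and 4 in macrophages and 1335 genes in progenitors. Without the upper gene limit, 3503 genes were called in obese adipocytes, and in WL 1850 genes and 4 members in macrophages and 246 genes and 0 members in progenitors. With classes from clustering, obesity gave 1 member in adipocytes, 278 genes in endothelium and 3 members in macrophages, and WL gave 85 genes and 1 member in adipocytes, 0 genes in endothelium (586 at an unadjusted p under 0.05), 1 member in macrophages and 0 in progenitors. The stricter gate gave 16 genes in WL endothelium and 0 members in WL progenitors. PVM-gated macrophages alone, added after seeing the data, gave 1803 genes and 1 member in obesity and 77 and 0 in WL. Without the library term, LAMs against PVMs gave 1869 genes and 4 members. The cause of these shifts was not tested.

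Leaving out each library in turn, obesity gave 6 to 2297 genes and 0 to 3 members in adipocytes, 0 to 1258 and 0 to 4 in endothelium, 1264 to 4885 and 1 to 5 in macrophages and 256 to 2903 and 0 to 2 in progenitors. WL gave 0 to 35 genes in adipocytes, 3 to 50 in endothelium, 367 to 1021 genes and 1 to 3 members in macrophages and 25 to 284 and 0 to 1 in progenitors. Adipocyte calls fell to 6 genes without H, 8 without HH and 152 without CC. One fitted value reversed, *Pfkp* in macrophages against the mean of other classes, 0.34 under the stricter gate. Of the other fitted values 3247 kept direction and side of the threshold, 240 were no longer called and 52 became called. The calls of macrophages against adipocytes and the 29 member ratios of at least 2-fold stayed within 1.5 times their counts.

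Depth limits *Slc2a1*, *Hk3* and *Pfkl* in classes of few nuclei, since their levels rest on few UMIs, and H had 181 adipocyte-gated nuclei (554 without the upper gene limit).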

Other observations

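Mesothelial-gated nuclei, which cover the surface of the fat pad, held *Slc2a3* at 182, 270 and 205 CPM in C, CC and CCC, 163 and 144 CPM in H and HH, 230 and 172 CPM in HC and HHC, and 179 and 175 CPM in CCH and HCH. In adipocytes the lowest level of the 9 libraries was 16.6 and the highest 438 CPM, a difference that was not tested. *Hk2* in mesothelium was at 10.8, 60.5 and 27.2 CPM in C, CC and CCC and at 3.07 and 1.99 CPM in H and HH, on 18, 45, 9, 3 and 4 UMIs. As a share of its adipocyte level it was below the adipocyte check genes in 9 of 9 libraries (0.302% to 22.9% against 7.10% to 64.5%), and the part of free adipocyte RNA was not tested. *Pkm* in mesothelium lay between 43.9 and 98.2 CPM. Diet was not tested in this class.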
